A study of Mus musculus with 8 samples.

Results

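MYC and the genes that build ribosomes were examined in mouse leukaemia stem cells with and without Pik3ca, which encodes the p110-alpha catalytic subunit of PI3K. The set was 44 named genes, 7 of the MYC, MAX and MXD network and 37 of ribosome biogenesis, out of 19505 genes named on the array. For each symbol the array row with the highest mean over 8 arrays was taken. Rows were found for 42 of the 44, and the box C/D protein gene Nop56 and the nucleolar GTPase gene Gnl3 were not analysed here. Mycn lay below the median row on all arrays and was not tested, which left 41 members among 9920 tested genes. Bone marrow of transplanted mice was the source of the cells, sorted as GFP-positive granulocyte-macrophage progenitors (GMPs) that carried the MLL-AF9 fusion oncogene. The groups were 3 arrays of Pik3ca-/- cells (KO) and 5 arrays of wild-type cells (WT), and MLL-AF9, GFP and transplantation were common to both. The labels used here give no strain, age, Cre driver or deleted exon, and do not say whether each array was from its own mouse. P-values therefore measure only the spread between these samples. Values are the deposited log2 values, read as log2 from their range of 1.89 to 18.6, so a difference of 1 stands for a 2-fold change.

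MYC is a transcription factor that binds DNA as a dimer with MAX, mostly at the E-box sequence CACGTG, and raises genes of growth and of ribosome production. The MXD proteins and MXI1 also pair with MAX and repress through the same sites. Ribosome building starts with transcription of ribosomal RNA by RNA polymerase I in the nucleolus. Small nucleolar ribonucleoproteins (snoRNPs) then modify the RNA, and assembly factors fold and cut it into the small and the large subunit. PI3K signalling through AKT and mTOR is a known stimulus of this chain, and MYC is a known dependency of MLL-AF9 leukaemia.

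Of the 44 genes, 38 matched a table of RefSeq promoters (GRCm38.p6), windows from 250 bases before to 50 after an annotated start. The sequence CACGTG, which reads the same on both strands, was searched in them because it is the site of the MYC and MXD dimers. At least 1 match was found in 8 of the 38 genes (21.1%), against 11.9% of 8179 tested genes and 8.09% of 27025 genes in the table. The 8 were Max, Mxd4, Imp4, Mybbp1a, Nop2, Pes1, Utp20 and Wdr43, each with 1 match. In Wdr43, Utp20 and Mybbp1a the match lay over 10 bases past the start, beginning at 18, 38 and 41. With the looser letters CANNTG, which include CACGTG, the share was 63.2% of members, 68.2% of tested genes and 75% of all genes. CACGTG holds a C followed by a G (CpG), and base content was not equal. The median window had 22 CpG in members, 20 in tested genes and 7 in all genes. A letter match does not show binding. The stretches around 4 of the matches are given with the motif in capitals, 5′ to 3′ on the gene's strand, to show where the element lies before or at the start.
Imp4, chr1:34439668-34439753, plus strand, match starting at -121: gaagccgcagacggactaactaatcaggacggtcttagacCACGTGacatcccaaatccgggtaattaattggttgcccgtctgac
Nop2, chr6:125131783-125131868, plus strand, match starting at -60: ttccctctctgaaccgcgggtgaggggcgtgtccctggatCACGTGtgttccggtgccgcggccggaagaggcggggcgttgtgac
Max, chr12:76962246-76962348, minus strand, match starting at -3: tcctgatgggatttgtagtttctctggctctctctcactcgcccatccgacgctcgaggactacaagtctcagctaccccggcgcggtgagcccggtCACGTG
Pes1, chr11:3963875-3963982, plus strand, match starting at 3: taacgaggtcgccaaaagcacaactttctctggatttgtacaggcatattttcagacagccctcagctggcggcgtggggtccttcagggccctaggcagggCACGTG
Positions count from 1 at the first transcribed base and from -1 just before it. In expression, the 8 genes with a match had a median KO minus WT difference of 0.15, from -0.35 for Utp20 to 0.28 for Pes1, with 5 of 8 above 0. The 27 tested members with a promoter in the table and no match had a median of 0.04, with 15 of 27 above 0. The medians were 0.08 and -0.02 when WT array 3, which stood apart from the other arrays, was left out.

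Arrays were compared before the groups. All 9 GMP and primary granule genes, markers of the labelled cell type, lay above the median row on all 8 arrays. Mpo was between 17.05 and 17.49 and Elane between 17.60 and 17.89. Cd34, a progenitor surface marker of that list, was less even, at 5.63, 7.81 and 7.42 in KO and 9.49, 7.24, 10.94, 9.08 and 8.01 in WT. In KO array 1 it was close to the median row of 5.43. Its difference was -2.001, with an unadjusted limma p of 0.0368 and an adjusted p of 0.998, and it was -1.504 without WT array 3, described next. Pik3ca itself averaged 9.15 ± 0.36 (SD, n = 3) over the KO arrays and 9.31 ± 0.51 (SD, n = 5) over the WT arrays. The deleted part is not named, so these probes do not check the genotype. WT array 3 stood apart, with a mean correlation across genes of 0.921 with the other arrays against 0.968 to 0.972 elsewhere. Against the mean of WT arrays 1, 2, 4 and 5, 732 genes were lower on it by over 2 log2 units, and 5 to 44 genes on each of the rest. The main comparisons below were therefore also made without that array. Among markers of other cells that the sort could hold, all 9 tested mature neutrophil genes also exceeded the median row on all 8 arrays. They averaged 14, 14.4 and 15.2 in KO arrays 1 to 3 and 14.4 to 14.8 in WT. The GMP list averaged 14.2 to 14.4 in KO and 14.3 to 14.7 in WT. These levels do not tell GMPs from later neutrophil stages. Of the 9 neutrophil differences, 1 was above 0. The megakaryocyte and platelet markers averaged 9.59 in WT array 1 and 5.80 to 6.83 in the other 7 arrays. In the 8 tested monocyte and macrophage markers, 1 difference was above 0, and the list averaged 8.95 to 9.39 in KO and 9.12 to 10.3 in WT. In 2 of these 8, Ms4a6c and Irf8, all KO arrays lay below all WT arrays, against 3.09% of all genes without overlap, and 2 of 8 were at an unadjusted limma p under 0.05, against 2.84%. Both counts were also 2 of 8 without WT array 3, against 5.53% and 4.65% of all genes. The mean of 8 mast cell, basophil and eosinophil markers was 6.30 to 6.38 in KO and 6.55 to 6.99 in WT, with no overlap. That held for the mean only: by gene, 0 of 6 tested were without overlap, against 3.09% of all genes. Of these 6, 1 difference was above 0, and Prg2 reached 11.98 and 12.84 in WT arrays 3 and 4. At an unadjusted limma p under 0.05 there were 0 of 6, against 2.84%. Without WT array 3 there was 1 of 6, against 4.65%. None of the tested genes of the 9 marker lists passed the adjusted limma test (0 called). The part of these cells in the values below was not tested, and in sorted samples fewer cells of a type and less RNA per cell cannot be told apart.

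Of the MYC and ribosome biogenesis genes tested, none passed the adjusted threshold in the comparison of KO with WT. Of the 41 tested members, 0 were higher and 0 were lower at an adjusted p under 0.05 in limma, as was the case for all genes (0% of 9920 called), and each member had an adjusted p of 0.998. At an unadjusted limma p under 0.05 there were also 0 of 41, against 2.84% of all genes. For 0 of 41 did the KO arrays lie wholly outside the range of the WT arrays, against 3.09% of all genes. The median difference was 0.05, with quartiles of -0.09 and 0.24, and 23 of 41 were above 0. Over all genes the median was 0.04 and 56% were above 0, so the members were centred where the whole array was. Without WT array 3, 0 of 41 passed, with a smallest adjusted p of 0.987, and 0 were at an unadjusted p under 0.05, against 4.65% of all genes. The median was then 0.03 with 24 of 41 above 0, against 0.00 and 49.9% over all genes.

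The arrays bounded most of these differences. The 95% interval of the difference lay inside a 2-fold change in either direction for 31 of 41 members, against 54.8% of all genes. It lay inside a 1.5-fold change for 8 of 41, against 11.2%. Without WT array 3 these counts were 34 and 17 of 41, against 72.1% and 25.9%. The 10 members whose interval reached beyond 2-fold with all arrays were Myc, Polr1a, Polr1c, Dkc1, Wdr3, Utp20, Rrp9, Nop2, Noc3l and Ddx21. For those a 2-fold difference was not excluded by the interval. Differences over 0.5 in size were seen in 3 of 41, Polr1a, Ddx21 and Rrp9, against 15.9% of all genes, and over 1 in 0 of 41, against 2.28%. The typical standard error of a difference was smaller than for the array at large, with a median of 0.26 in the members and 0.31 over all genes.

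**Figure D1:**
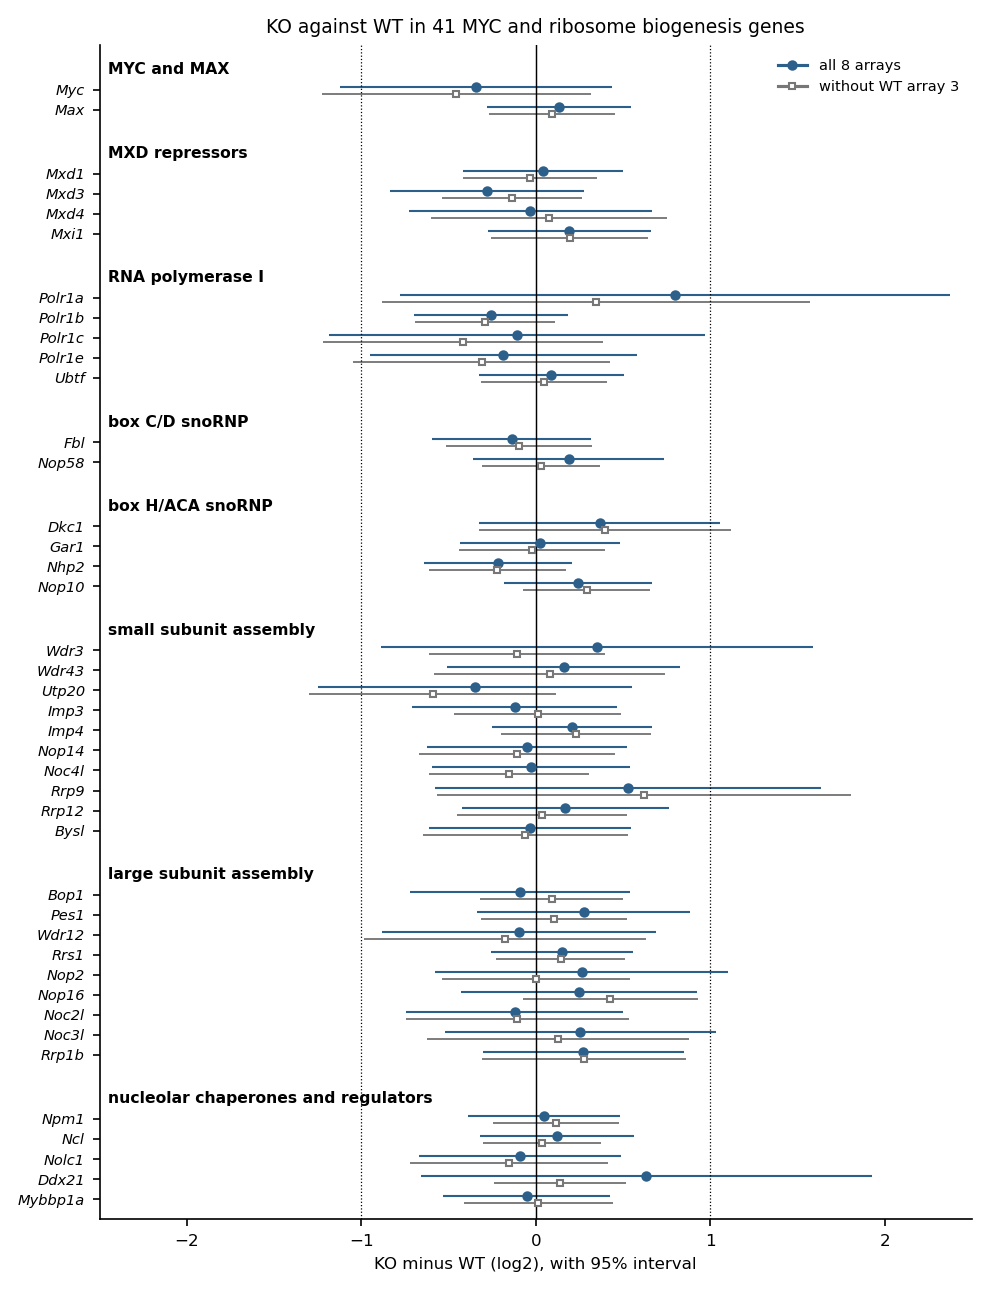
Difference KO minus WT on the log2 scale for each of 41 tested genes, grouped by role, with 95% intervals from limma. Filled circles use all 8 arrays and open squares leave out WT array 3; dotted lines mark a 2-fold change. Every interval crosses 0 in both fits, and the widest, those of Polr1a, Ddx21 and Wdr3, narrow without WT array 3.

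Myc showed the largest spread between arrays of its network in the KO group. It was 13.28, 14.15 and 12.69 in KO arrays 1 to 3 and 13.93, 14.00, 13.27, 13.95 and 13.44 in WT arrays 1 to 5. KO array 2 was the highest of the 8 and KO array 3 the lowest, so the KO group spanned the whole WT range. KO arrays averaged 13.37 ± 0.73 (SD, n = 3) and WT arrays 13.72 ± 0.34 (SD, n = 5). The difference of -0.34, with a 95% interval of -1.12 to 0.43, did not exceed that spread: the exact permutation test, two-sided, gave p = 0.411, where 56 splits allow 0.0179 at the least. Without WT array 3 it was -0.46, and the exact permutation p was 0.314 (35 splits). The value rested on single KO arrays: it was -0.73 without KO array 2 and -0.0045 without KO array 3.

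Mycn, the paralogue that drives neuroblastoma, was near the floor, at 3.130 to 3.204 in KO and 3.112 to 3.251 in WT. It was below the median row of the array, 5.26 to 5.51, on all 8. Max, the shared partner, was 13.49, 13.35 and 13.23 in KO and 13.40, 13.14, 13.06, 13.23 and 13.30 in WT. The groups overlapped, and the difference of 0.13 had a standard error of 0.18.

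Of the 4 MXD and MXI1 repressors, several of which rise as cells stop dividing and mature, 2 were above 0 and 2 below, and 0 passed. Mxd1 was 11.36, 10.98 and 11.43 in KO and 11.27, 11.27, 10.92, 11.33 and 11.30 in WT, with KO array 2 and WT array 3 low and the other 6 between 11.27 and 11.43. Its difference of 0.04 turned to -0.03 without WT array 3. Mxd3, a family member linked to dividing cells, was 9.62, 9.44 and 9.24 in KO and 9.65, 9.61, 10.28, 9.33 and 9.68 in WT, where WT array 3 was highest. The difference was -0.28, and -0.14 without that array. Mxd4 was 9.15, 8.32 and 9.22 in KO and 8.86, 8.28, 9.35, 9.11 and 9.02 in WT, so that 1 array of each group, KO array 2 and WT array 2, lay well below the rest. Its difference was -0.03, and 0.08 without WT array 3. Mxi1, which encodes the fourth MAX-binding repressor of the set, was 13.50, 13.45 and 13.02 in KO and 13.13, 13.40, 13.13, 12.94 and 13.05 in WT. The difference was 0.19 with and without WT array 3, and the groups overlapped.

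**Figure D2:**
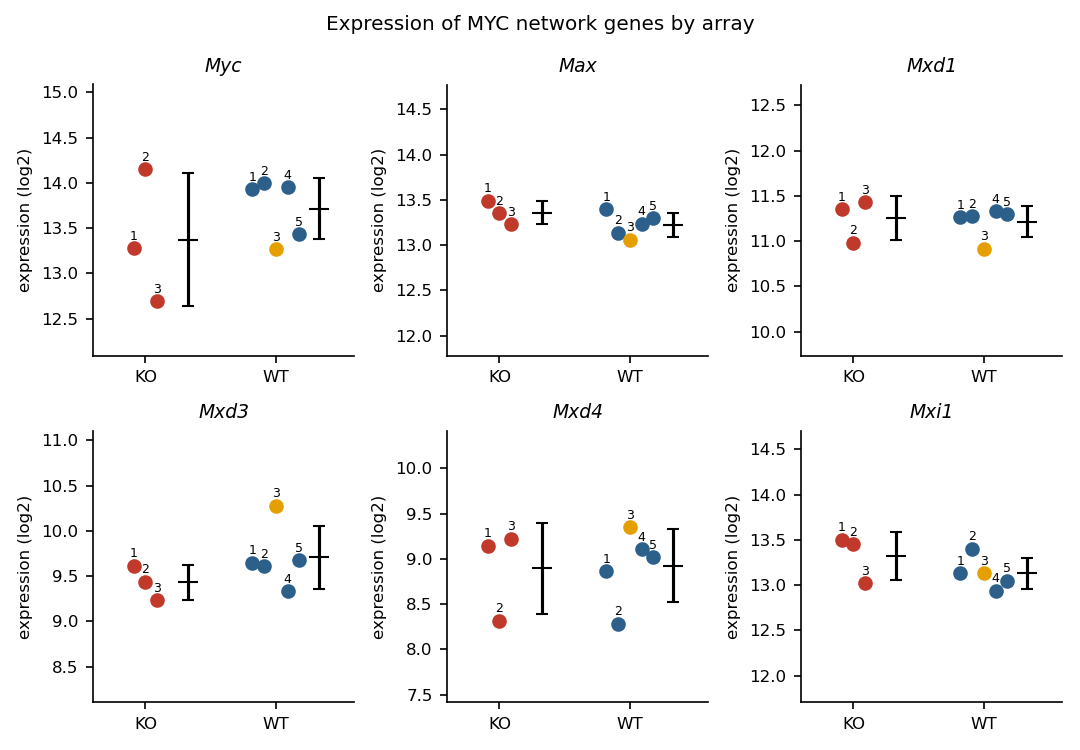
Expression (log2) of 6 MYC network genes in each array, KO in red, WT in blue and WT array 3 in orange, with replicate numbers above the points. Bars are the mean and SD of each group, and each panel spans 3 log2 units. KO and WT points overlap in every panel, and Myc in KO runs from 12.69 to 14.15.

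In RNA polymerase I, which transcribes the precursor of ribosomal RNA, 5 members were tested, 2 with a difference above 0 and 3 below, and 0 passed. Polr1a, the largest subunit, had the largest difference of all members, 0.80. It was 8.46, 9.51 and 6.98 in KO and 7.62, 7.70, 5.71, 8.41 and 8.15 in WT, with KO array 2 high and KO array 3 low in its group and WT array 3 the lowest of all. With a 95% interval of -0.78 to 2.38 it was also the least certain, and without WT array 3 it was 0.35. Leaving out KO array 2 gave 0.20, and leaving out KO array 3 gave 1.47. Polr1b, the subunit that shares the active site, had the smallest unadjusted limma p of the members with all arrays, 0.221. Its values were 13.35, 13.50 and 13.07 in KO and 13.51, 13.61, 13.42, 13.49 and 13.78 in WT. All WT arrays but WT array 3 and WT array 4 lay above the 3 KO arrays, and the difference was -0.26 with a standard error of 0.19. Polr1e was 9.12, 9.10 and 8.14 in KO and 9.62, 8.996, 8.48, 9.17 and 8.61 in WT, a difference of -0.19. Polr1c, a subunit shared with RNA polymerase III, differed by -0.11 and by -0.42 without WT array 3, which stood at -1.56 against the mean of the other 4. Ubtf, which binds the promoter and body of ribosomal RNA genes, averaged 12.29 ± 0.12 (SD, n = 3) and 12.20 ± 0.13 (SD, n = 5) in KO and WT, a difference of 0.09 with a 95% interval of -0.33 to 0.50.

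The snoRNP proteins take part in the methylation and pseudouridylation of ribosomal RNA. Fbl, the methyltransferase fibrillarin of the box C/D particle, was 14.97, 15.33 and 14.86 in KO and 15.10, 15.23, 15.37, 15.30 and 14.97 in WT. WT array 3 was the highest of the 8 and KO array 3 the lowest, with a difference of -0.14. Nop58, a core protein of the same particle, was 13.57, 13.71 and 13.49 in KO and 13.54, 13.54, 12.77, 13.54 and 13.60 in WT. Outside WT array 3 the WT arrays lay between 13.54 and 13.60, and the difference was 0.19 with that array and 0.03 without it.

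Of the 4 box H/ACA genes, whose products also bind telomerase RNA, 3 were above 0. Nop10 was 14.16, 14.41 and 14.32 in KO and 14.10, 14.02, 14.25, 14.08 and 13.83 in WT. KO array 1 lay below WT array 3, and with that array left out all KO arrays lay above all WT arrays. Nop10 was the only 1 of 41 members without overlap there, against 5.53% of all genes and 2.58% with KO higher. Its difference was 0.24, and 0.29 without WT array 3, with an adjusted limma p of 0.987. Dkc1, the pseudouridine synthase dyskerin, was 8.99, 9.41 and 8.84 in KO and 9.03, 8.04, 8.84, 9.24 and 8.43 in WT, where WT arrays 2 and 5 were low. The difference was 0.37 with a 95% interval of -0.32 to 1.05. Nhp2 was 12.51, 12.87 and 12.62 in KO and 12.96, 12.81, 12.88, 13.04 and 12.73 in WT, a difference of -0.22 in the other direction from Nop10. Gar1 differed by 0.03, and by -0.02 without WT array 3.

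Among 10 genes of small subunit assembly, most of them parts of the small subunit processome or its U3 particle, 5 were above 0 and 5 below. Rrp9, a U3 snoRNP protein, was 9.08, 10.06 and 8.07 in KO and 8.51, 7.49, 8.90, 8.67 and 9.13 in WT. KO array 2 was the highest and WT array 2 the lowest of the 8, and the difference of 0.53 had a 95% interval of -0.58 to 1.64. It was 0.04 without KO array 2 and 1.03 without KO array 3. Imp4, also of the U3 particle, was 12.57, 13.07 and 12.57 in KO and 12.67, 12.37, 12.63, 12.51 and 12.47 in WT, where only KO array 2 was above all WT arrays. Utp20 was 7.67, 8.46 and 7.15 in KO and 8.004, 8.39, 7.15, 8.51 and 8.50 in WT. Its difference was -0.35, and -0.59 without WT array 3, with an unadjusted limma p of 0.0902 and an adjusted p of 0.987 there, and it was -0.70 without KO array 2 and -0.05 without KO array 3. Wdr3 was 5.04 in WT array 3 and 7.29 to 7.39 in the other WT arrays, and its difference of 0.35 turned to -0.11 without that array. The other 6, Wdr43, Imp3, Nop14, Noc4l, Rrp12 and Bysl, had differences between -0.12 for Imp3 and 0.17 for Rrp12.

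Of 9 tested genes of large subunit assembly, 6 were above 0, and 7 without WT array 3. Rrp1b was 7.77, 7.35 and 7.01 in KO and 7.39, 7.39, 7.12, 6.77 and 6.85 in WT, a difference of 0.27 with a standard error of 0.25. Pes1, which forms the PeBoW complex with Bop1 and Wdr12, was 15.29, 15.59 and 15.32 in KO and 15.39, 15.41, 14.45, 15.41 and 14.98 in WT. WT array 3 was the lowest, and the difference of 0.28 was 0.11 without it. In the other members of that complex, Bop1 differed by -0.09 and Wdr12 by -0.09, and without WT array 3 by 0.09 and -0.18, each within its standard error. Rrs1 was 9.98, 10.09 and 10.33 in KO and 9.99, 10.03, 9.95, 9.88 and 10.06 in WT, with a difference of 0.15. Nop2, an RNA methyltransferase gene, was 11.50 in WT array 3 and 12.42 to 13.13 in the other WT arrays. Its difference of 0.26 was 0.0010 without that array. Nop16 moved the other way, with 0.25 against 0.43 without WT array 3, where its unadjusted limma p of 0.0859 was the smallest of the members. Noc3l differed by 0.26 and Noc2l by -0.12.

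Of 5 nucleolar chaperones and regulators, 3 were above 0 and 0 passed. Ncl, encoding nucleolin, was 13.38, 13.47 and 13.45 in KO and 13.53, 13.38, 12.96, 13.36 and 13.34 in WT, and its difference of 0.12 was 0.03 without WT array 3. Npm1, encoding the histone and ribosome chaperone nucleophosmin, averaged 15.58 ± 0.04 (SD, n = 3) in the KO arrays against 15.53 ± 0.20 (SD, n = 5). The 95% interval of its difference, -0.39 to 0.49, lay inside a 1.5-fold change. Nolc1 was 10.03, 10.38 and 9.62 in KO and 10.38, 10.42, 9.85, 10.09 and 9.77 in WT, a difference of -0.09. Ddx21, an RNA helicase gene of rRNA transcription and processing, was 11.35, 10.97 and 11.03 in KO and 11.07, 10.88, 8.49, 11.01 and 10.96 in WT. Its difference of 0.63 was 0.14 without WT array 3, which stood at -2.49 against the mean of the other 4. Mybbp1a, a MYB-binding nucleolar protein gene, differed by -0.05.

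**Figure D3:**
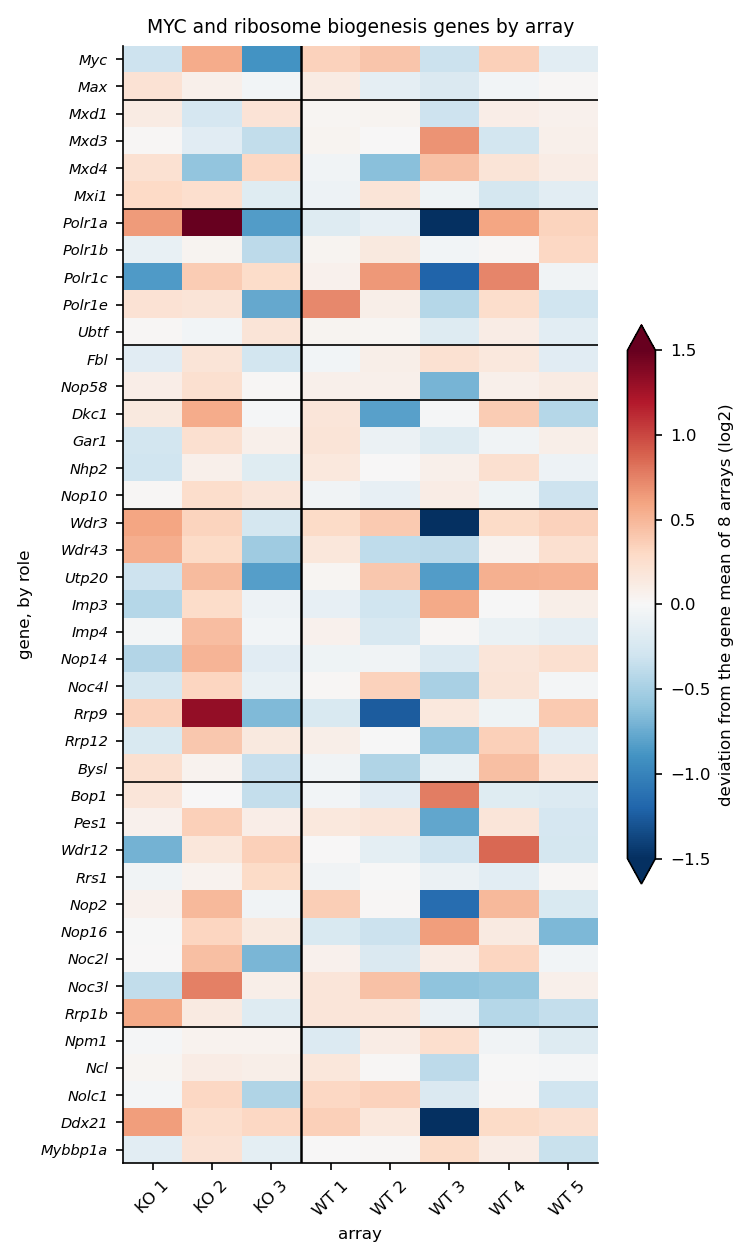
Deviation of each tested gene in each array from its mean over 8 arrays (log2), with red above and blue below the mean. Rows are ordered by role, lines part the roles, the vertical line parts KO from WT, and deviations beyond 1.5 take the end colour. The strongest blue cells lie in WT array 3 (Polr1a, Wdr3, Ddx21), and KO array 2 is mostly red.

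Single arrays were also set beside each other. KO array 2 was the highest of the 8 in 13 of 41 members and the lowest in 0, where it was the highest for 14.1% and the lowest for 8.77% of all genes. KO array 3 was the lowest in 9 and the highest in 3, against 10.8% and 10.9% of all genes. WT array 3 was the lowest in 15 of 41 and the highest in 8, close to its shares over all genes of 36.5% and 25%. It was lower than the mean of the other 4 WT arrays by over 1 log2 unit in 6 members, against 22.5% of all genes, and higher by as much in 0, against 9.77%. Against the mean of WT arrays 1, 2, 4 and 5, the median shift of the members was 0.01, 0.19 and -0.09 in KO arrays 1 to 3 and -0.21 in WT array 3. Over all genes these shifts were -0.02, 0.05, -0.02 and -0.15.

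The order of the arrays by Myc was set beside that of the ribosome biogenesis genes, a pattern looked for after the values were seen. The median deviation of the 35 tested ribosome biogenesis members from their means over 8 arrays was 0.27 in KO array 2, where Myc was highest. It was 0.14, 0.06 and 0.01 in WT arrays 4, 1 and 2, where Myc lay between 13.93 and 14.00. In WT array 5, KO array 1, WT array 3 and KO array 3, where Myc was 13.44 or lower, it was -0.05, -0.0052, -0.20 and -0.08. As a description over 8 arrays, with no test, Pearson's r between the level of Myc and this median was 0.742 and Spearman's rho 0.881. Without WT array 3 they were 0.768 and 0.857 over 7 arrays, and r was 0.756 over 6 arrays without KO arrays 2 and 3, the farthest from the median Myc. All points share the scaling of their array, and the median of all genes had an r of 0.462 with Myc, 0.604 without WT array 3, and 0.559 without KO arrays 2 and 3. Gene by gene, 28 of 35 members had a positive correlation with Myc over 8 arrays, against 56.7% of all genes, and 30 of 35 without WT array 3, against 53.6%. Without KO arrays 2 and 3 they were 23 of 35 (65.7%), against 56.4%. In the other 91 tested ribosome biogenesis genes the r of the median was 0.489, with 67 of 91 genes positive. These were 0.627 and 59 of 91 without WT array 3, and without KO arrays 2 and 3 they were 0.553 and 68 of 91. Groups of 3 and 5 arrays were too small for values within KO or within WT.

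**Figure D4:**
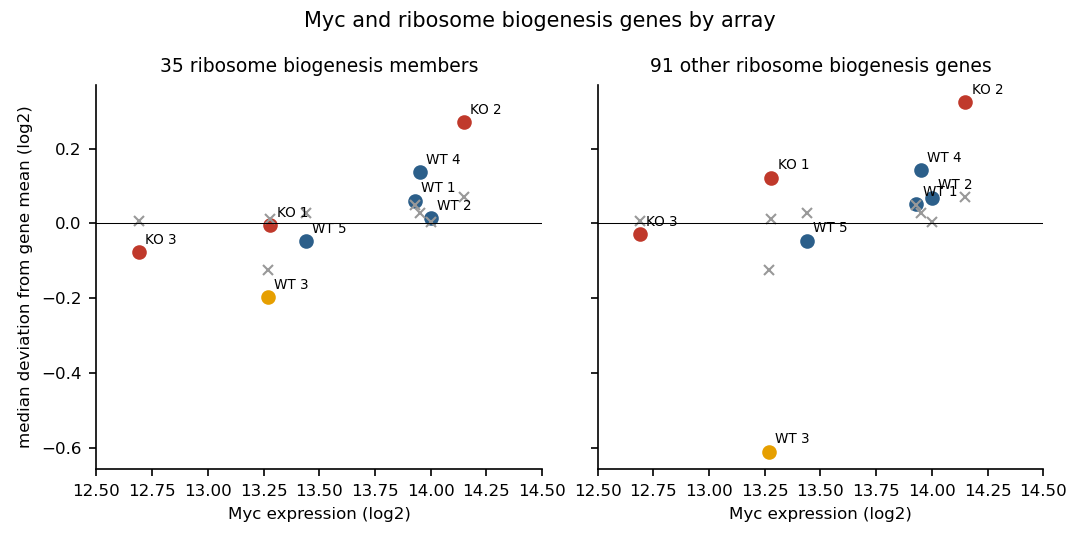
Level of Myc (log2, x axis) against the median deviation of ribosome biogenesis genes from their means over 8 arrays (log2, y axis), 1 point per array, for 35 members (left) and 91 other genes (right). KO is red, WT blue and WT array 3 orange, and grey crosses are the median of all tested genes. KO array 2 is highest on both axes, and WT array 3 is lowest on the y axis in both panels.

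Other genes of these pathways were read from 4 lists. Of 98 further ribosome biogenesis genes, 91 were tested and 0 passed in either direction, with 69 of 91 above 0 and a median of 0.17. Without WT array 3, where this list was shifted by -0.65 against the other WT arrays, 54 of 91 were above 0 and the median was 0.08. Utp18, a processome protein gene, was 8.09, 8.44 and 8.27 in KO and 7.18, 7.79, 6.88, 7.98 and 7.46 in WT, so the groups did not overlap. Its difference was 0.81, with an adjusted limma p of 0.998. Nol6 differed by -0.60 and Brix1, a large subunit factor gene, by 0.63, each with overlap of the groups. In the list, 2 of 91 genes were without overlap of the groups, against 3.09% of all genes. The list had 1 gene at an unadjusted limma p under 0.05 (1.10%, against 2.84% of all genes).

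Of 17 tested genes of the polymerase I machinery outside the set, 0 passed and 6 were above 0, with a median of -0.14, and 9 were above 0 with a median of 0.0022 without WT array 3. The genes of this list with the smallest unadjusted limma p were Taf1c at 0.59, Tbp, the TATA-binding protein gene, at -0.35 and Polr1d at -0.36. Of 19 tested genes of the wider MYC network and of MYC turnover, 0 passed and 10 were above 0, with a median of 0.04. Leaving out WT array 3, 7 were above 0 with a median of -0.05, and 2 of 19 (10.5%) were at an unadjusted p under 0.05, against 4.65% of all genes. Zbtb17, which encodes the MYC partner MIZ1, averaged 8.69 ± 0.45 (SD, n = 3) in the KO arrays against 8.01 ± 0.34 (SD, n = 5), a difference of 0.68. With all arrays it was the 1 of 19 at an unadjusted p under 0.05, with an adjusted limma p of 0.998. Mlx, which pairs with MXD proteins and with the glucose sensor MondoA, differed by 0.49 and Trrap, a cofactor that MYC recruits, by -0.49.

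Of 32 tested further MYC targets, outside ribosome biogenesis in the main, 0 passed and 24 were above 0, with a median of 0.13. Without WT array 3 they were 23 of 32 and 0.12. The genes with the smallest unadjusted p were Shmt2, a mitochondrial serine enzyme gene, at -0.41, Cct5, a chaperonin subunit gene, at 0.61 and Paics, of purine synthesis, at 0.60. Cct5 was 13.64 in WT array 3 and 14.54 to 15.03 in the other WT arrays, and its difference was 0.38 without that array.

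**Figure D5:**
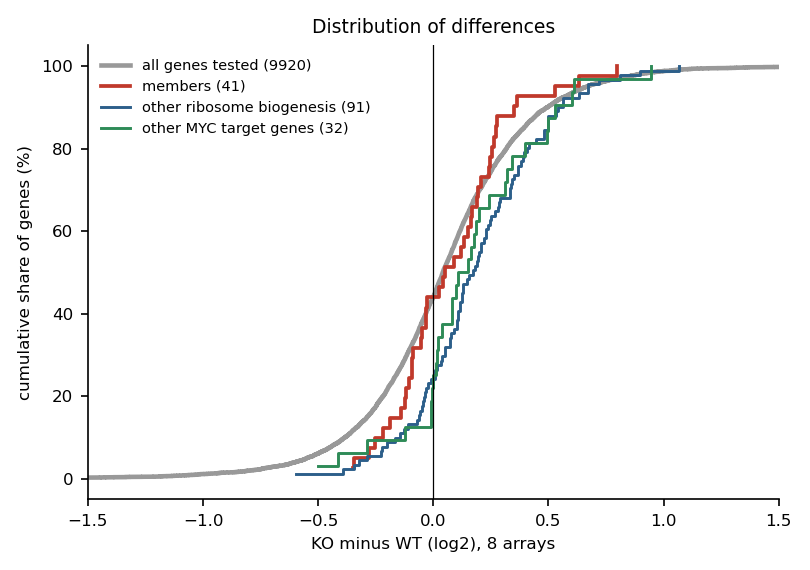
Cumulative share of genes (y axis, %) by KO minus WT difference (x axis, log2, 8 arrays) for all 9920 tested genes, 41 members, 91 other ribosome biogenesis genes and 32 other MYC targets. The members cross 0 where all genes do and are less spread, and both other lists lie to the right of all genes around 0. Genes beyond 1.5 in either direction are not drawn.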

How the data were processed

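Deposited log2 values of 28846 rows were used for all 8 arrays. How the authors corrected, normalized and summarised them, and with which software and build, is not given in the sources used here. That they are base 2 was read from their range. Of 22206 transcript rows, 19572 had 1 symbol in the annotation given for the platform, which seems not to be that of the array named in the design text. A gene was tested if its row exceeded the array's median (50th percentile of all rows) on at least 3 arrays, 1 row per symbol by highest mean. KO was compared with WT by limma 3.58.1 (R 4.3.3; lmFit, eBayes, two-sided, Benjamini-Hochberg over all genes tested). Other lists and the members were chosen with earlier results of these data known, and named genes follow a rule of smallest unadjusted p in each role and list. Printed promoters follow the most matches, then p. A match starting over 10 bases past the start, as in Utp20, Wdr43 and Mybbp1a, was not printed, a choice made after matches were seen. No protein table was used here. Each result was also computed with each array left out, with no filter or a stricter one (60th percentile, 5 arrays), after median centring or quantile normalization, with low values raised to the 25th percentile, with array weights, with a trended and robust eBayes, with replicate number as block, and with the most variable row of a gene. On simulated data (10 runs, 9920 genes, 200 changed, independent noise) the KO against WT test recovered 18.9% of 2-fold and 65.8% of 4-fold changes, with 3.9 false calls a run. The closest arrays differed by 0.574 (root mean square), so none was counted as a duplicate. The number of arrays limited the precision. Python 3.11.15 with matplotlib 3.10.9 drew the figures.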

Additional observations from a re-analysis of the deposited data

Results flagged for a closer look

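In the 5 WT arrays, 42 values (41 genes and their median shift) were checked for 1 extreme array, taking the distance to the next array as a share of the whole range. This was above 0.71, the 95% critical value for 5 samples, for 6 of them, where chance gives about 1 in 20. The same count over all genes was not made, so an excess particular to the members is not shown. In 5 of the 6 the array was WT array 3, which was the lowest of 8 for 36.5% and the highest for 25% of all genes. It was the lowest for Mxd1 at 10.92 with the next array at 11.27, for Nop58 at 12.77 with the next at 13.54, for Wdr3 at 5.04 with the next at 7.29 and for Ddx21 at 8.49 with the next at 10.88. It was the highest for Bop1, at 13.02 with the next at 12.21. For Wdr12 it was WT array 4 that stood apart, highest at 11.58 with the next at 10.72.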

How the results depend on the processing

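Over 17 alternatives, 0 members and 0 genes passed the adjusted test, the member median stayed between 0.03 and 0.11, and 21 to 29 members were above 0. Of the 41 differences, 23 kept their sign throughout. Quantile normalization turned Mxd1 to -0.0085 and Gar1 to -0.0098. Array weights, which gave WT array 3 a weight of 0.149, turned Mxd1 to -0.026, Mxd4 to 0.052, Gar1 to -0.041, Wdr3 to -0.011 and Bop1 to 0.085. The replicate number as a block turned Mxd4 to 0.062, Polr1c to 0.095, Nop14 to 0.075, Noc4l to 0.022, Bysl to 0.18, Wdr12 to 0.084 and Npm1 to -0.022, and with this block the member median was 0.10 and 28 were above 0. The causes were not tested. The deviations of KO and WT arrays of one number correlated at 0.0177, -0.0182 and 0.137 for numbers 1 to 3. Of the 3 KO arrays, 1 correlated best with its own number. So few arrays cannot show whether a shared number stood for a pairing. Leaving out 1 array at a time turned signs in 17 genes, with ranges of -0.046 to 0.18 for Mxd1, -0.19 to 0.26 for Mxd4, -0.42 to 0.29 for Polr1c, -0.35 to 0.14 for Polr1e, -0.088 to 0.17 for Gar1, -0.11 to 0.59 for Wdr3, -0.060 to 0.48 for Wdr43, -0.30 to 0.052 for Imp3, -0.32 to 0.15 for Nop14, -0.20 to 0.096 for Noc4l, -0.16 to 0.13 for Bysl, -0.21 to 0.092 for Bop1, -0.30 to 0.23 for Wdr12, -0.38 to 0.18 for Noc2l, -0.046 to 0.52 for Noc3l, -0.28 to 0.11 for Nolc1 and -0.17 to 0.015 for Mybbp1a. In the simulated data, with independent noise over all genes and no array set apart, most 2-fold changes were not called by the adjusted test.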
